A study of Mus musculus with 12 samples.

Results

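Of the 17007 genes in the deposited table, 37 were examined here as the genes of fatty acid oxidation and ketogenesis. They were named by their known roles in a fixed list: the carnitine shuttle (5 genes), mitochondrial acyl-CoA dehydrogenases and electron transfer (7), the later steps of mitochondrial beta-oxidation (6), peroxisomal oxidation (8), ketone body synthesis (1), uptake, activation and acyl-CoA hydrolysis (7) and regulators (3). All 37 passed the filter on low values. RNA was sequenced from 12 mouse livers or liver tumors, 3 per group. Normal liver (NL) came from wild-type mice with no treatment given in the labels. The other 3 groups were liver tumors, labelled RictorKOTsc2KO. They were raised by hydrodynamic tail vein injection, which carries plasmids into hepatocytes, of c-MYC and MCL1 together with Cre into mice with floxed Rictor and Tsc2 alleles. Thus every tumor group, the vehicle group included, carried both deletions and both oncogenes, while normal liver carried none, and normal liver differed from tumors in genotype, injection and gavage at once. Rictor is a subunit of mTORC2, and TSC2 holds mTORC1 in check. Tumor mice received vehicle, MLN0128, an inhibitor of the mTOR kinase, or everolimus, a rapamycin analog, each drug at 1 mg/kg/day by gavage on 6 days a week for 3 weeks. Treatment began 6 days after injection and tumors were taken 3.7 weeks after injection. The text of the study gives a shorter course, so the length of treatment is as the labels have it.

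Hepatocytes bind long-chain fatty acids in the cytosol, activate them to acyl-CoA and pass them into mitochondria on carnitine, where each round of beta-oxidation removes an acetyl-CoA. When acetyl-CoA exceeds what the citric acid cycle takes up, as in fasting, the liver turns it into ketone bodies for other organs. Peroxisomes shorten very long and branched chains, and the nuclear receptor PPAR-alpha switches on genes of both compartments.

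Library sizes, recovered from the FPKM values (fragments per kilobase of exon, scaled for sequencing depth) and the exon lengths, ran from 17175987 to 25164754 reads. Those of the 3 vehicle libraries (18733691 to 20343690) lay above those of the 3 normal livers (17870015 to 18606391), and the other groups overlapped both. The deposited values carry a scaling between libraries. The effective library size was 0.585 to 0.596 times the reads in normal liver and 1.10 to 1.37 times in the tumors, and plain library totals moved the median log2 difference of all genes between vehicle-treated tumors and normal liver from 0.06 to 0.63. Tumor-to-normal values are given on the deposited scaling, and the calls that were lost on plain library totals are named for each role. The 8 hepatocyte markers were above 0.5 FPKM in every group, and their summed level was 78980 to 98755 FPKM in normal liver, 3919 to 6072 in vehicle-treated tumors, 1838 to 4107 under MLN0128 and 3127 to 7912 under everolimus. Most of the sum in normal liver was albumin (Alb), and the markers fell unevenly. From normal liver to vehicle, mean Alb went from 66600 to 1524 FPKM, but Cps1 from 709 to 301 and Hnf4a from 218 to 104. These levels are on the deposited scaling. In bulk tissue, fewer hepatocytes and less RNA per hepatocyte cannot be told apart. MLN0128 replicates 1 and 2 held Xist RNA (191 and 155 FPKM) and none of 4 Y-linked genes, while the other 10 libraries showed the opposite, so the differences named under MLN0128 are also given without these 2 libraries. That leaves 1 MLN0128 library, replicate 3, assumed to vary like the other groups. A call lost there does not show a weaker change, and a call kept or gained there rests on that library. The labels name separate samples and not their mice, so p-values measure the spread between these samples.

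Stretches of DNA upstream of these genes are shown for 2 loci on which results turn: Fabp1, the most abundant member, and Hadha with Hadhb, whose levels kept a nearly fixed ratio in all 12 libraries. Of the 37 genes, 31 matched a RefSeq promoter (build GRCm38.p6, from 250 bases before to 50 bases after the start). The Fabp1 stretch is chr6:71199629-71199826 on the plus strand and ends where the first annotated exon begins. Capitals mark a direct repeat of AGGNCA with 1 base between the copies, the form of a PPAR response element, read here on the minus strand.
Fabp1: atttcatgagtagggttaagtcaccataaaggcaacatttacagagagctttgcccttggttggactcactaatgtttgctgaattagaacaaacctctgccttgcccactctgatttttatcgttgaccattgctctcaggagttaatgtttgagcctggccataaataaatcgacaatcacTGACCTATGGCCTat
This repeat, searched on both strands, was found in 1 of the 31 promoters and in 0.451% of all 27025 genes with a promoter. Hadha (ENSMUSG00000025745.12, chr5:30118304-30155162, minus strand) and Hadhb (ENSMUSG00000059447.13, chr5:30155248-30184593, plus strand) start back to back, and the 85 bases between their annotated ends, chr5:30155163-30155247, are printed on the plus strand.
Hadha/Hadhb: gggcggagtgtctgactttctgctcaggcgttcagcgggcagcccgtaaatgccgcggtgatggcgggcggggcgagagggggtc
The E-box CACGTG, the form bound by MYC, was in 0 of the 31 promoters and in 8.09% of all genes with a promoter. The ERR element TCAAGGTCA was in 0 of 31 and in 0.466%. These windows are short, and the counts describe only their letters.

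Between normal liver and vehicle-treated tumors, most genes of fatty acid oxidation were lower in the tumors. Of the 37, 28 were called lower and 3 higher by limma's treat test, which asks for a change beyond 1.5-fold at an adjusted p under 0.05. The fatty acid binder Fabp1 stood 33.8-fold lower and the transporter and bile acid ligase Slc27a5 35.2-fold lower, while Pdk4, the kinase that shuts pyruvate out of oxidation, stood 34.8-fold higher. Among all 14397 genes tested, 16.9% were called lower and 15.9% higher. The median log2 fold change was -1.77 over the members and 0.06 over all genes. All 3 tumor libraries lay below all 3 normal libraries for 32 members and above them for 4, against 35.1% and 39.0% of all genes, and only Ppargc1a overlapped. On plain library totals, 14 members were called lower and 3 higher, with a median of -0.85 where the median of all genes was 0.63, and 7.83% of all genes were called lower and 36.2% higher. On the deposited scaling the hepatocyte markers fell, unevenly, in the same libraries, and their part in these differences was not tested.

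**Figure D1:**
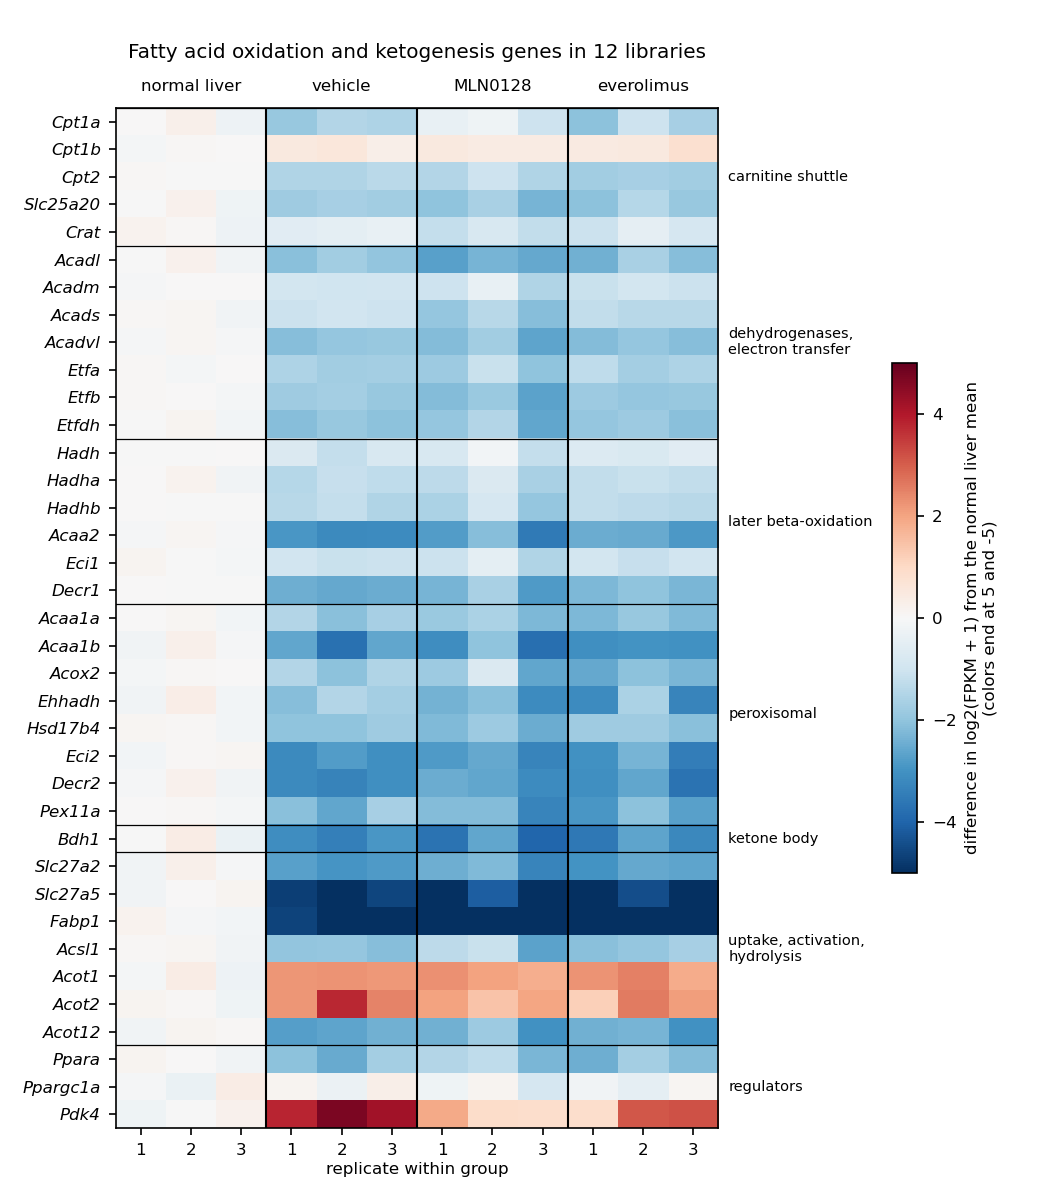
Difference in log2(FPKM + 1) of each of the 37 genes (rows, by role) from its normal liver mean in each of the 12 libraries (columns), with blue for lower and red for higher. Blue fills most tumor columns, and Cpt1b, Acot1, Acot2 and Pdk4 are the members that stand above normal liver in every tumor library.

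**Figure D2:**
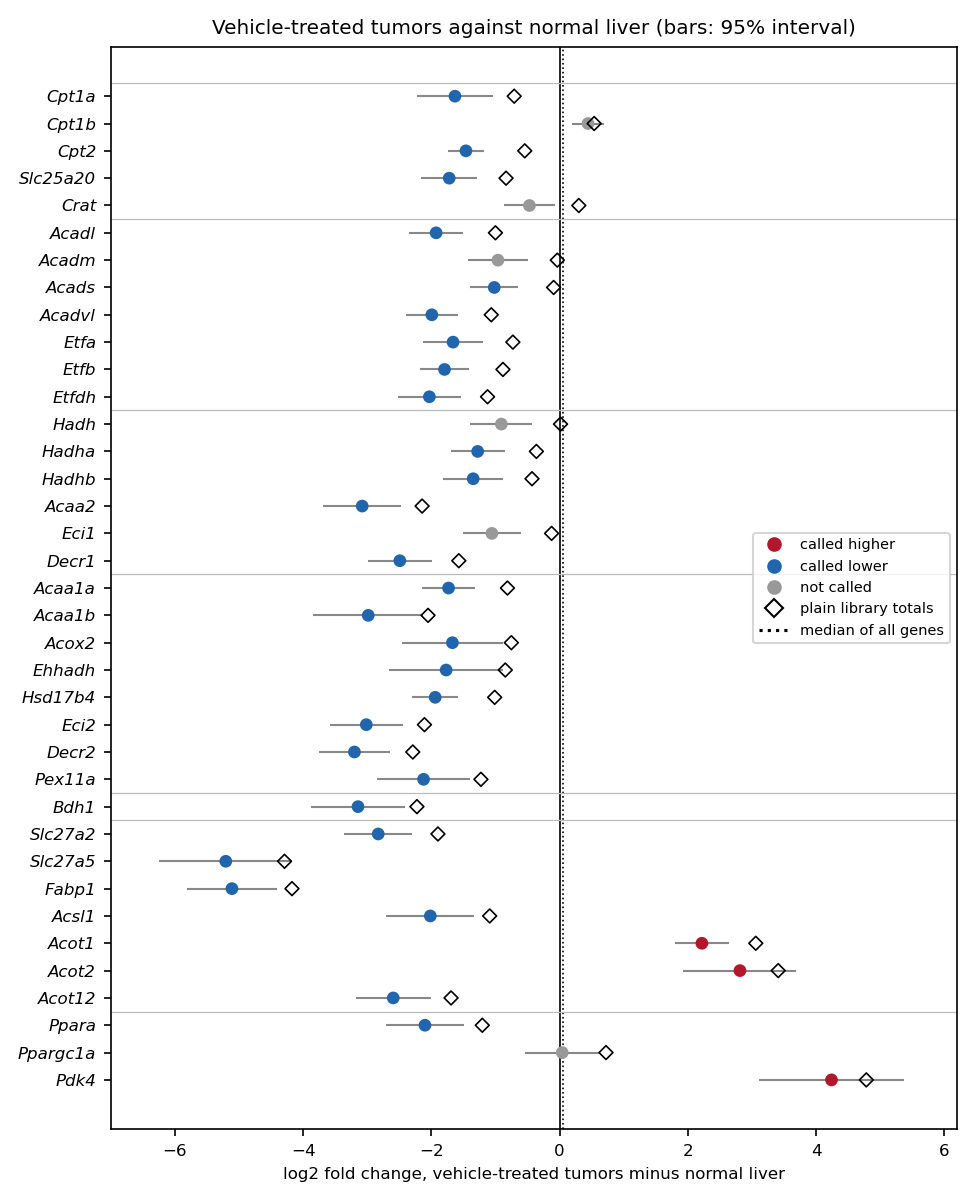
Log2 fold change of each gene, vehicle-treated tumors minus normal liver, with its 95% interval (limma). Filled circles are the deposited scaling, blue and red where treat called the gene, open diamonds are plain library totals, and the dotted line is the median of all genes, 0.06. Of the 37 circles, 28 are called lower and 3 higher.

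Here and below, falls and differences of single genes given without a unit are log2 fold changes. In the carnitine shuttle, 3 of 5 genes were called lower. Cpt1a (ENSMUSG00000024900.5, chr19:3322334-3385733), the liver form of the enzyme that commits acyl groups to mitochondria, measured 117, 138 and 97.4 FPKM in normal liver and 30.5, 41.8 and 39.3 in vehicle-treated tumors. The groups did not overlap (log2 fold change -1.63, SE 0.27, treat adjusted p 0.00498). Cpt2, which returns the acyl group to CoA inside the mitochondrion, measured 76.3, 72.8 and 72.8 FPKM against 25.1, 25.1 and 28.7 and fell by 1.46. The carrier Slc25a20 went from 25.7–35.5 FPKM to 8.16–8.95 and fell by 1.72. The groups overlapped in none of these 3 genes, yet on plain library totals none of the 3 was called (Cpt1a -0.71, Cpt2 -0.54 and Slc25a20 -0.83, treat adjusted p 0.553, 0.948 and 0.216). Crat, which handles short acyl groups, spanned 5.05 to 7.18 FPKM in normal liver against 3.85 to 4.54 in vehicle-treated tumors, was not called by treat and turned sign on plain library totals. Cpt1b, the muscle form, was near the floor, at 0, 0.108 and 0.0853 FPKM in normal liver and 0.498, 0.563 and 0.293 in the tumors. It never exceeded 72 reads in a library. Of the 100-base stretches of its longest transcript, 91.1% also occur in the read-through gene Gm44502, so its level is uncertain. Sequence shared between genes is counted in the same way below.

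The acyl-CoA dehydrogenases, which take the first step of each round, and the flavoproteins that carry off their electrons showed 6 of 7 genes called lower, with a median of -1.79. On plain library totals only Acadvl (-1.07) and Etfdh (-1.12) were called, and Acadl, Acads, Etfa and Etfb were not. Acadvl, for very long chains, went from 157–172 FPKM to 36.5–42.4 and fell by 1.99. Acadl, for long chains, went from 126–165 to 33.0–42.7 and fell by 1.92. The electron carriers Etfa, Etfb and Etfdh fell by 1.66, 1.79 and 2.03. Etfb shares 65.2% of its sequence with Gm45233, and 42.9% of Acadvl's exons overlap Dvl2 on the opposite strand, so both values are uncertain. The short-chain and medium-chain enzymes had smaller differences. Acads was called lower at -1.02 (SE 0.17, treat adjusted p 0.0420), a call lost when some single libraries were left out, and with a sign that turned when the sum of FPKM was set equal in all libraries. Acadm, the medium-chain enzyme, measured 118, 123 and 123 FPKM in normal liver and 63.6, 59.6 and 62.4 in the tumors. Its groups stood apart at 51.0% of the normal mean, yet the change of -0.96 (SE 0.22) was not shown to exceed 1.5-fold (treat adjusted p 0.144, moderated adjusted p 0.00192, limma), and its sign also turned with equal sums.

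In the later steps of mitochondrial oxidation, 4 of 6 genes were called lower, of which Acaa2 (-2.14) and Decr1 (-1.57) were also called on plain library totals. Acaa2, the thiolase that releases acetyl-CoA, measured 1050, 1160 and 1040 FPKM in normal liver and 143, 119 and 121 in the tumors, a log2 fold change of -3.08 (SE 0.28). Per length, it was the most abundant member after Fabp1 in normal liver. Decr1, which reduces double bonds, went from 116–121 FPKM to 19.2–20.9 and fell by 2.49. Hadha and Hadhb encode the 2 subunits of the trifunctional protein and share the intergenic stretch printed above. Hadha measured 66.7, 74.0 and 58.1 FPKM in normal liver and 23.7, 29.5 and 27.0 in the tumors, and fell by 1.28 (SE 0.19, treat adjusted p 0.00776), and Hadhb fell by 1.35. Neither was called on plain library totals (-0.36 and -0.43, treat adjusted p 1 for each). Hadh, for short chains, and Eci1, an isomerase, did not pass treat (-0.91, adjusted p 0.215, and -1.06, adjusted p 0.0645). Hadh spanned 93.7–96.1 FPKM in normal liver and 41.3–56.5 in the tumors, Eci1 216–253 and 107–118, and the sign of Hadh turned on plain library totals.

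All 8 peroxisomal genes were called lower, with a median of -2.03. On plain library totals 4 of the 8 were called, Decr2, Eci2, Acaa1b and Hsd17b4, while Acaa1a, Acox2, Ehhadh and Pex11a were not (treat adjusted p 0.220, 0.531, 0.468 and 0.0818). Decr2, the peroxisomal reductase, measured 92.2, 111 and 85.4 FPKM in normal liver and 9.69, 8.56 and 10.4 in the tumors (-3.20, SE 0.25). Eci2, an isomerase, measured 74.0, 83.9 and 86.5 against 8.04, 10.9 and 8.82 (-3.01, SE 0.26). In both, every tumor library lay far below every normal library. The thiolase Acaa1b measured 562, 746 and 605 FPKM against 103, 46.6 and 103 (-2.98, SE 0.39), and 22.6% of its sequence is shared with its paralog Acaa1a, which fell by 1.73. Ehhadh, the peroxisomal bifunctional enzyme and a classical PPAR-alpha target, measured 96.7, 136 and 99.0 against 24.1, 39.0 and 32.7 (-1.77, SE 0.41, treat adjusted p 0.0234). It was not called without normal liver replicate 2 or without vehicle replicate 1, and Acox2, an oxidase of branched chains that fell by 1.67 (82.9–92.1 to 20.5–30.8 FPKM), was not called without vehicle replicate 2. Hsd17b4, the other bifunctional enzyme, fell by 1.94 (164–196 to 44.2–51.9 FPKM) and Pex11a, a peroxisome division factor, by 2.12 (39.0–43.0 to 5.93–12.3 FPKM).

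Bdh1, which turns acetoacetate into 3-hydroxybutyrate, measured 143, 189 and 116 FPKM in normal liver and 16.2, 12.9 and 18.4 in the tumors. The change was -3.14 (SE 0.34, treat adjusted p 4.05e-05), and it was also called on plain library totals (-2.22).

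The uptake and activation genes held the largest decreases, and also 2 of the 3 increases. Fabp1 (ENSMUSG00000054422.7, chr6:71199827-71205023), which carries fatty acids in the hepatocyte cytosol, measured 21000, 17900 and 16700 FPKM in normal liver and 740, 454 and 451 in the tumors (-5.11, SE 0.32, treat adjusted p 3.46e-07). It made up 74.8 to 79.6% of the summed FPKM of the 37 genes in normal liver and 25.4 to 35.9% in vehicle-treated tumors, and led the members in every group. Slc27a5 measured 380, 429 and 467 FPKM against 15.1, 4.32 and 16.8 (-5.21, SE 0.47, treat adjusted p 6.32e-06), and went from rank 5 among the 37 to rank 28. Slc27a2, a transporter that also activates very long chains, measured 383, 520 and 418 against 65.8, 55.5 and 61.0 (-2.83, SE 0.24). In each of these genes the lowest normal library lay several times above the highest tumor library. Acsl1, the main acyl-CoA synthetase of the liver, fell by 2.02 (137–167 to 34.3–40.1 FPKM) and the thioesterase Acot12 by 2.59 (50.6–64.1 to 7.78–10.1 FPKM). Of these 5 genes, Acsl1 was not called on plain library totals (-1.09, treat adjusted p 0.104).

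The paralogous thioesterases Acot1 and Acot2, cytosolic and mitochondrial enzymes that split acyl-CoA back to the free acid, went the other way. Acot1 measured 8.78, 12.2 and 7.56 FPKM in normal liver and 46.9, 48.7 and 46.0 in the tumors (2.22, SE 0.19, treat adjusted p 1.69e-05). Acot2 measured 1.94, 1.78 and 1.27 against 11.1, 34.8 and 13.9 (2.81, SE 0.40, treat adjusted p 0.000465). Both were higher in all 3 tumor libraries and were called on plain library totals as well, with vehicle replicate 2 far above the others for Acot2. The paralogs share sequence, 17.1% of Acot2 being identical to Acot1, and both values are uncertain to that extent.

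The regulators split. Ppara, which encodes PPAR-alpha, measured 44.8, 41.2 and 35.9 FPKM in normal liver and 9.04, 6.17 and 11.6 in the tumors (-2.10, SE 0.28, treat adjusted p 0.000536), and at -1.20 on plain library totals (0.0499). Ppargc1a, its coactivator, measured 3.19, 2.41 and 4.64 against 3.72, 2.5 and 4.32, and the groups overlapped (0.04, 95% interval -0.54 to 0.62). Pdk4 (ENSMUSG00000019577.6, chr6:5483351-5496309), a PPAR-alpha target in many tissues, measured 0.898, 1.14 and 1.56 FPKM against 29.5, 56.2 and 39.4 (4.24, SE 0.52, treat adjusted p 7.79e-05). Receptor and target thus moved in opposite directions in the same libraries.

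**Figure D3:**
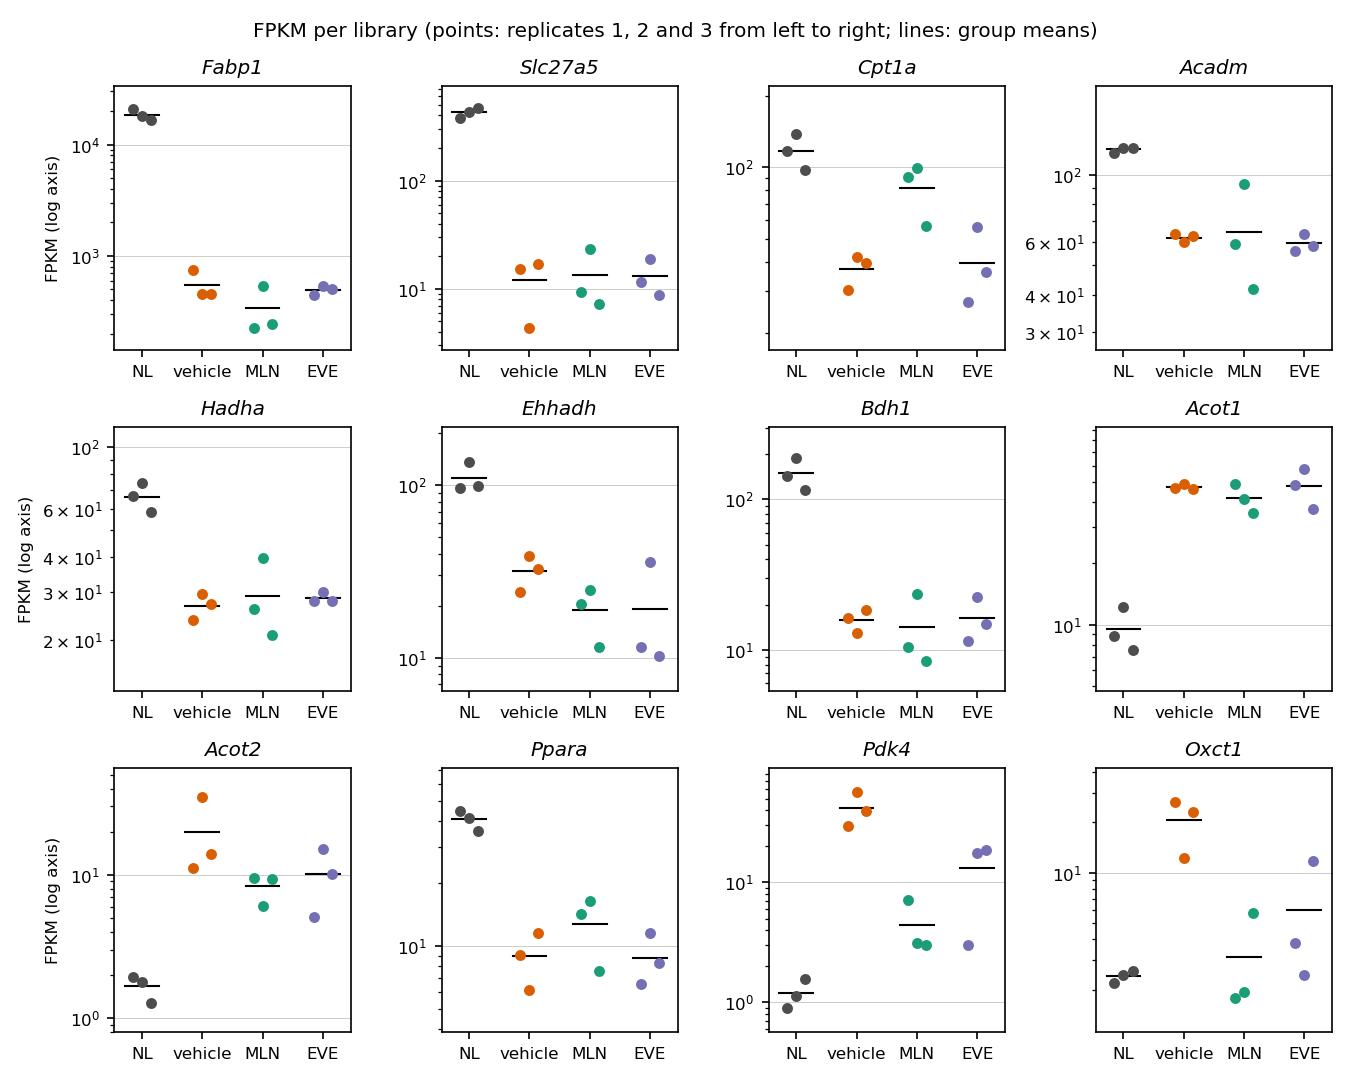
FPKM (log axis) in each library for 11 of the genes and for Oxct1, which is described with the ketone enzymes; points are replicates and lines are group means. Pdk4 is high in the 3 vehicle libraries, from 29.5 to 56.2 FPKM, and from 2.99 to 7.16 under MLN0128, while Cpt1a under MLN0128, from 56.6 to 99.4 FPKM, lies above all 3 vehicle libraries.

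Ratios of partner genes within a library do not depend on the scaling between libraries. Hadha to Hadhb stayed between 0.797 and 1.12 in all 12 libraries. Other partners changed unequally between normal liver and tumor. Eci1, mainly mitochondrial, stood at no more than 3.42 times Eci2 in normal liver and at 9.82 to 14.7 times in vehicle-treated tumors, a log2 difference of 2.09. Decr1 to Decr2, mitochondrial to peroxisomal, went from 1.05 to 1.38 up to 1.98 to 2.24. Acaa1a to Acaa1b went from 0.119 to 0.150 up to 0.250 to 0.403. None of these ranges overlapped, and each gave an exact permutation p of 0.1 (two-sided), the smallest that 3 against 3 allows, with 0.389 after adjustment over the 35 ratio tests made. As a share of all reads, the 37 genes took 1.49 to 1.69% in normal liver and 0.521 to 0.543% in vehicle-treated tumors, and without Fabp1 0.947 to 1.10% and 0.492 to 0.514%.

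**Figure D4:**
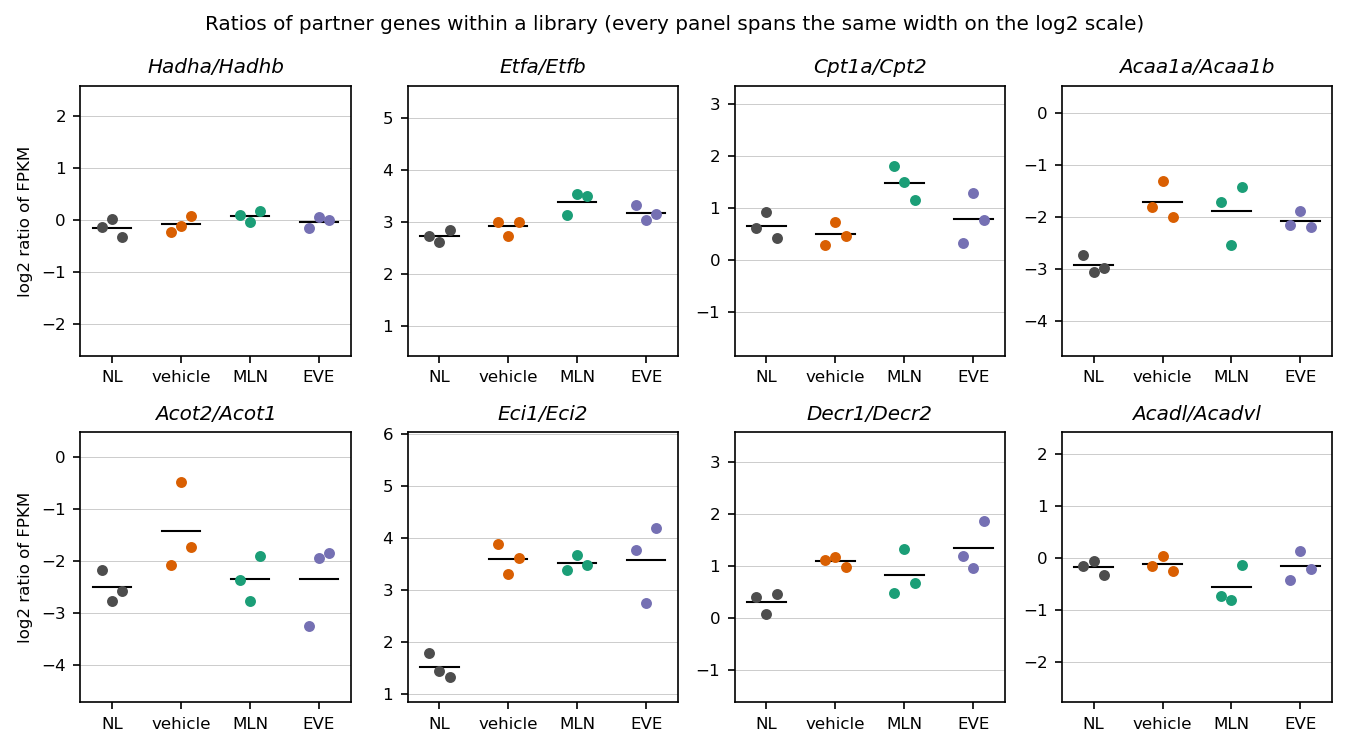
Log2 ratio of FPKM of 8 partner pairs in each library, with lines for group means and the same width of axis in every panel. Hadha/Hadhb lies near 0 in all groups, Eci1/Eci2 is lower in the 3 normal livers than in every tumor library, and Cpt1a/Cpt2 is higher in the 3 MLN0128 libraries than in the 3 vehicle libraries.

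MLN0128 was compared with vehicle to ask what blocking the mTOR kinase does in tumors that lack Rictor and Tsc2. Pdk4 was the 1 member called by limma's treat, and it was lower under the drug. It measured 29.5, 56.2 and 39.4 FPKM with vehicle and 7.16, 3.13 and 2.99 with MLN0128, so that the groups stood well apart (-3.01, SE 0.52, 95% interval -4.15 to -1.87, treat adjusted p 0.0248). Among all genes, 1.65% were called lower and 0.479% higher. The direction held in all 23 alternatives, at -2.92 on plain library totals, which moved the median of all genes between these groups from -0.01 to 0.10. The call was lost without vehicle replicate 2 (adjusted p 0.0729) or 3 (0.0830), and without MLN0128 replicate 2 (0.0784) or 3 (0.0543), all by treat. Without MLN0128 replicates 1 and 2 together the difference was -3.37 and not called (treat adjusted p 0.191). Treat called 0 members higher. At an unadjusted p under 0.05 (moderated test), 1 member was higher and 7 lower, where 6181 of all 14397 genes passed in either direction.

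By limma's moderated test without a fold threshold, 1 member was higher and 4 were lower, where 14.9% and 17.1% of all genes were. The member that was higher was Cpt1a. It measured 30.5, 41.8 and 39.3 FPKM with vehicle and 90.8, 99.4 and 56.6 with MLN0128, with no overlap (1.10, SE 0.27, 95% interval 0.51 to 1.69, moderated adjusted p 0.0100, treat adjusted p 0.551). Without MLN0128 replicates 1 and 2 the difference was 0.60 (moderated adjusted p 0.281). Its partner Cpt2 measured 25.1, 25.1 and 28.7 against 25.8, 35.3 and 25.6. The Cpt1a to Cpt2 ratio did not exceed 1.67 in vehicle libraries, lay between 2.21 and 3.52 under MLN0128 and between 1.24 and 2.44 under everolimus (MLN0128 minus vehicle 0.99 on the log2 scale, exact permutation p 0.1, adjusted 0.389). As a sum that includes Cpt1a, the carnitine shuttle genes took 0.0399–0.0503% of reads in vehicle libraries and 0.0727–0.105% under MLN0128 (exact permutation p 0.1, not adjusted). The 0.0727% was that of MLN0128 replicate 3. Within this sum the directions were mixed, with 2 of the 5 genes, Cpt1a and Cpt2, above vehicle and 3 below. Shares of reads were tested for every role. The exact permutation p was 0.5 for all 37 genes and 0.1 for the regulators, which were lower under MLN0128. It was 0.4 or more for each other role. Besides Pdk4, the members that passed the moderated test as lower were Acads (-0.79, SE 0.17, moderated adjusted p 0.00504), Acadl (-0.61, SE 0.19, 0.0323) and Crat (-0.59, SE 0.18, 0.0270), named after their values were seen. Acads spanned 58.3–63.6 FPKM in vehicle libraries against 27.3–47.1 in the MLN0128 libraries, and passed that test in every alternative (the difference was -1.12 without MLN0128 replicates 1 and 2). Acadl and Crat no longer passed it without vehicle replicate 2 or 3, without MLN0128 replicate 1 or 3 or replicates 1 and 2 together, or on plain library totals (0.0995 and 0.0561). Acot2 lay lower in all 3 MLN0128 libraries (9.54, 6.05 and 9.35 FPKM against 11.1, 34.8 and 13.9) but did not pass (-1.02, moderated adjusted p 0.0730, and -0.85, 0.384, without MLN0128 replicates 1 and 2). In all, 1 member lay wholly above and 5 wholly below vehicle, against 22.1% and 23.4% of all genes.

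**Figure D5:**
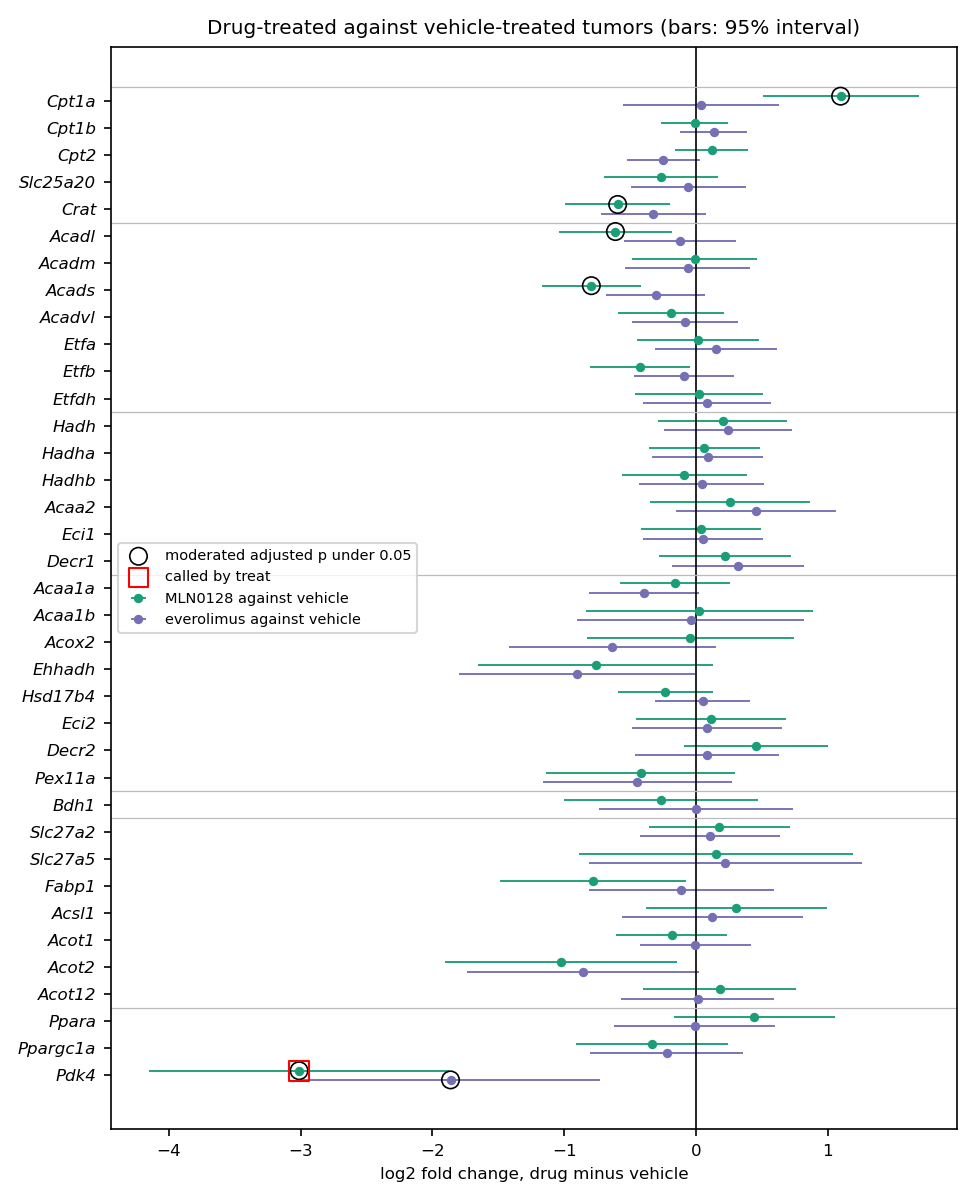
Log2 fold change of each gene against vehicle with its 95% interval (limma), green for MLN0128 and purple for everolimus; circles mark a moderated adjusted p under 0.05 and the square marks a treat call. The square is on Pdk4 under MLN0128 (-3.01), and Cpt1a under MLN0128 (1.10) is the circled gene on the right of 0.

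Most of the pathway showed no difference that this design could call. The median over the members was -0.01, with 17 positive and 20 negative. All 6 genes of the later mitochondrial steps and all 8 peroxisomal genes overlapped vehicle, with differences from -0.09 to 0.26 and from -0.76 to 0.45. Fabp1 measured 226, 539 and 244 FPKM against 740, 454 and 451 (-0.78, 95% interval -1.48 to -0.08, moderated adjusted p 0.0841), and without MLN0128 replicates 1 and 2 the difference was -1.12. Etfb was at -0.43 (moderated adjusted p 0.0800), and at -0.88 without those 2 libraries. Both of these larger differences rest on MLN0128 replicate 3 alone. Ehhadh measured 20.4, 24.8 and 11.6 against 24.1, 39.0 and 32.7, Bdh1 10.5, 23.5 and 8.5 against 16.2, 12.9 and 18.4, and Ppara 14.2, 16.4 and 7.6 against 9.04, 6.17 and 11.6, all 3 overlapping. The MLN0128 libraries differed among themselves across the pathway. The median of the 37 genes relative to the vehicle mean was -0.13, 0.52 and -0.55 in replicates 1, 2 and 3, and 13, 27 and 2 of them lay above the vehicle mean. The albumin gene Alb, a hepatocyte marker, followed the same order at 878, 1110 and 482 FPKM, as did the markers Apoa1, Ttr, Hnf4a, Cps1 and Asgr1. Among the listed hepatocyte markers, Serpina1a (41.9, 101 and 45.2 FPKM) and Tat (14.0, 12.7 and 8.62) did not. The part of these markers in that spread was not tested.

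Everolimus was compared with vehicle to ask the same of an mTORC1 inhibitor at the same daily dose. It shares the vehicle libraries with the MLN0128 comparison. Treat called 0 members lower and 0 higher, where 0.570% and 0.0347% of all genes were called. At an unadjusted p under 0.05 (moderated test), 2 members were lower and 0 higher, where 3865 of all 14397 genes passed in either direction. Pdk4 measured 3.02, 17.6 and 18.6 FPKM under everolimus, each below the lowest vehicle library (-1.86, SE 0.52, limma moderated adjusted p 0.0443). It was the only member to pass the moderated test, which 6.05% of all genes passed lower and 3.78% higher. It did not pass without any 1 of the normal liver or vehicle libraries, nor without everolimus replicate 1, the lowest of the 3 (-1.11, moderated adjusted p 0.0884), and the highest adjusted p was 0.122. Cpt1a measured 27.0, 55.9 and 36.1 FPKM and overlapped vehicle (0.04, 95% interval -0.55 to 0.63). Besides Pdk4, Cpt2, Acads and Acox2 lay wholly below vehicle and Acaa2 and Decr1 wholly above, 4 and 2 members against 14.8% and 17.6% of all genes, and none of those 5 passed (-0.25, -0.31, -0.64, 0.45 and 0.32). Ehhadh, at 11.5, 35.9 and 10.2 FPKM, and Acot2, at 5.04, 15.1 and 10.2, spread widely. Fabp1 was 446, 532 and 506 FPKM and overlapped vehicle.

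With MLN0128 set directly against everolimus at the same dose, treat again called 0 members in either direction, against 0.0347% of all genes lower and 0.00695% higher. At an unadjusted p under 0.05 (moderated test), 2 were higher and 3 lower under MLN0128, where 3883 of all 14397 genes passed in either direction. Cpt1a was the only member to pass limma's moderated test (1.06, SE 0.27, adjusted p 0.0342), which 3.99% of all genes passed higher and 5.54% lower. The difference was 0.56 (moderated adjusted p 0.422) without MLN0128 replicates 1 and 2, and the test was also lost without MLN0128 replicate 1 (0.124) or 2 (0.0846), everolimus replicate 1 (0.107) or 3 (0.121), or normal liver replicate 1 (0.0502). Cpt1a and Cpt2 lay wholly above everolimus and 0 members wholly below, against 12.5% and 15.2% of all genes. For Pdk4 the difference between the drugs was -1.15 (95% interval -2.29 to -0.01, moderated adjusted p 0.181), and its size rested on everolimus replicate 1, without which it was -1.90 (moderated adjusted p 0.0194).

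Most of the genes were lower than in normal liver under either drug. Against normal liver, 28 members were called lower under MLN0128 and 28 under everolimus, where 20.2% and 18.4% of all genes were, and 2 and 3 were called higher, where 17.1% and 16.9% were. On plain library totals 15 and 20 were called lower, where 8.07% of all genes were in each comparison, and 41.1% and 36.2% of all genes were called higher. These comparisons share the normal livers. Cpt1a was lower than normal liver under everolimus (-1.59, SE 0.27, treat adjusted p 0.00582), whereas under MLN0128 it overlapped normal liver (-0.53, SE 0.27, moderated adjusted p 0.0936, limma). Pdk4 was higher under everolimus (2.38, SE 0.52, treat adjusted p 0.00908) and was not called under MLN0128 (1.23, SE 0.52, 0.263), though all 3 MLN0128 libraries lay above normal liver. Acot1 and Acot2 were called higher under both drugs.

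Other genes of these pathways, from 4 lists of 95 genes of which 91 were tested, were lower in vehicle-treated tumors as well. Of the 91, 54 were called lower and 3 higher by treat, where 16.9% and 15.9% of all genes were, with a median of -1.38. On plain library totals 28 were called lower and 12 higher, where 7.83% and 36.2% of all genes were, with a median of -0.47. Peroxisomal genes counted 20 lower of 30, and 10 lower and 1 higher on plain library totals. Other mitochondrial genes counted 15 lower and 1 higher of 21, and 6 and 2 on plain library totals. PPAR-alpha targets and regulators counted 16 lower of 34, and on plain library totals 10 lower and 7 higher. Nudt7, a peroxisomal CoA hydrolase, fell by 6.40 and Scp2, the peroxisomal thiolase of branched chains, by 4.12. The fatty acid omega-hydroxylase Cyp4a12a fell by 7.22 and the carnitine octanoyltransferase Crot by 3.02.

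Among 6 genes of ketone body enzymes and transport outside the members, 3 were called lower and 2 higher, and 2 and 2 on plain library totals. Oxct1, the transferase that lets tissues burn ketone bodies and that hepatocytes barely express, was called higher, from 2.18, 2.45 and 2.59 FPKM to 26.3, 12.2 and 22.9 (2.59). Bdh1, a member, was thus lower and Oxct1 higher in the same 3 tumors.

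Under MLN0128, 3 of these 91 genes were called by treat, all lower than vehicle, and 0 were called higher, where 1.65% of all genes were called lower and 0.479% higher. At an unadjusted p under 0.05 (limma), 14 of the 91 were higher and 17 lower, where 6181 of all 14397 genes passed in either direction. Oxct1 measured 1.78, 1.93 and 5.76 FPKM (-2.43, SE 0.46, treat adjusted p 0.0484), and the call held in 10 of 23 alternatives. Without MLN0128 replicates 1 and 2 it was -1.60 (moderated adjusted p 0.116). Fgf21, a hormone induced by PPAR-alpha in fasting, measured 9.91, 9.93 and 13.6 FPKM with vehicle and 0.889, 0.345 and 0.484 with MLN0128 (-2.95, SE 0.49, treat adjusted p 0.0206). Its call held in 18 of 23, and the difference was -3.02 without those 2 libraries. Creg1, a secreted glycoprotein, differed by -1.38 (SE 0.19, treat adjusted p 0.0432). Its call held in 6 of 23, and the difference was -1.69 without them. Oxct1 and Pdk4 were thus both higher in vehicle-treated tumors than in normal liver and lower under MLN0128 than with vehicle. Among markers of other cell types, biliary Krt19, Sox9 and Epcam and macrophage Cd68 followed the same order. The macrophage markers Adgre1, Csf1r, Clec4f and Marco did not. Their means fell from 8.37, 10.1, 81.0 and 3.46 FPKM in normal liver to 2.89, 3.60, 7.18 and 2.38 with vehicle. The mean of biliary Spp1 also fell, from 40.2 to 27.3 FPKM, and biliary Krt7 did not exceed 0.511 FPKM in any library. Krt19, a biliary marker, measured 0.207 to 0.65 FPKM in normal liver, 9.49 to 44.0 with vehicle and 0.152 to 0.834 under MLN0128, and the macrophage marker Cd68 4.8 to 5.75, 24.6 to 36.8 and 5.37 to 12.4. Over the whole lists of 5 markers each, the summed level was 40.2 to 43.6, 36.8 to 92.5 and 10.3 to 28.1 FPKM for biliary cells and 101 to 119, 37.5 to 59.8 and 14.2 to 24.9 for macrophages, and their part in the values of Pdk4 and Oxct1 was not tested. Under everolimus, Oxct1 was 3.79, 2.45 and 11.8 FPKM and Fgf21 3.06, 10.1 and 10.7. Treat called 0 of the 91 genes there, where 0.570% of all genes were lower and 0.0347% higher. At an unadjusted p under 0.05, 8 of the 91 were higher and 16 lower, where 3865 of all 14397 genes passed in either direction. Between MLN0128 and everolimus treat also called 0 of the 91, where 0.0347% of all genes were lower and 0.00695% higher. There, 10 of the 91 were higher and 4 lower at that unadjusted p, where 3883 of all 14397 genes passed.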

How the data were processed

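Total RNA of 3 normal livers and 9 tumors (3 each with vehicle, MLN0128 or everolimus) was sequenced. Reads were counted per Ensembl gene, named by Entrez symbol and tested with edgeR's glmTreat by the authors. The submitters' notes name build GRCm38 and FastQC 0.11.7. The aligner, its version and strand setting are not given in the sources used here. The deposited values are FPKM, to 3 significant digits, with a scaling between libraries by the authors. The members and gene lists were chosen with earlier results of these data known.

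FPKM times exon length (GENCODE M21) gave whole reads for 98.2 to 98.9% of values under 20 reads (tolerance 0.1), and totals of 17175987 to 25164754 reads. Genes at 0.5 FPKM or more in at least 3 of 12 libraries (14397) were tested as log2(FPKM + 1), so that changes of low genes are understated, in 1 limma 3.58.1 fit (R 4.3.3) over all libraries, with 8 residual degrees of freedom. Treat (fold change 1.5, intensity trend) with Benjamini-Hochberg adjusted p under 0.05 made the calls, and the moderated test stood beside it. Ratios and shares of reads were compared by exact permutation tests. The fit was tested on simulated data. Sequences came from RefSeq. Python 3.11.15, pandas 2.3.3 and scipy 1.17.1 were used.

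FPKM of every library were printed for members called between tumor groups, for the 10 with the largest tumor-to-normal change, and for entry, core and regulator genes, with ranges for the others. Of other pathway genes, those called under a drug or the 3 with the largest tumor-to-normal change in a list could be named. Some genes of these lists are not reported here. In all, 25 alternatives were run (23 of them with treat, the others with the moderated test), covering pseudocount, filter, scaling, test, libraries in the fit, prior variance, replicate block, voom on recovered reads and left-out libraries.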

Additional observations from a re-analysis of the deposited data

How the results depend on the processing

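Counts of members called between vehicle-treated tumors and normal liver depended on scaling. The 28 called lower became 14 on plain library totals, where 7.83% of all genes were called lower. They became 10 with the sum of FPKM set equal and 18 after quantile normalization. Under MLN0128 against normal liver, the 28 lower became 15 on plain totals and 9 with equal sums, and the 2 higher became 4 with equal sums. Under everolimus against normal liver, the 28 lower became 10 with equal sums. The sign turned for Crat (0.30) and Hadh (0.016) on plain totals, and with equal sums for Crat (0.58), Acadm (0.23), Acads (0.17), Hadh (0.28) and Eci1 (0.14). These scalings move all genes of a library together. With equal sums the log2 differences of all genes shifted by a median of 1.09 between vehicle-treated tumors and normal liver. The share of all genes called with equal sums or quantile normalization is not given here, so those counts cannot be set against it.

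The moderated test, with or without a fold change above 1.5, gave 1 member higher (in place of 0) and 4 lower (in place of 1) for MLN0128 against vehicle, 1 lower (in place of 0) for everolimus against vehicle and 1 higher (in place of 0) for MLN0128 against everolimus. Without a fold threshold it gave 4 higher for MLN0128 against normal liver. Leaving out 1 library at a time gave 0 to 1 lower for MLN0128 against vehicle, 1 to 2 higher for MLN0128 against normal liver and 26 to 30 lower for vehicle against normal liver. Without MLN0128 replicates 1 and 2, which hold Xist RNA, 0 were lower than vehicle and 1 was higher than normal liver. The cause was not tested, except that these fits hold fewer libraries, with 1 MLN0128 library left in the last of them. On recovered reads, voom called 29 members lower and 4 higher between vehicle-treated tumors and normal liver, and 1 lower between MLN0128 and vehicle. It used the effective library sizes, so these counts keep the deposited scaling and do not test it. The share of all genes that voom called is not given here.

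For the 43 differences of single members that passed the moderated test between 2 groups (drug groups against normal liver not included), 912 alternative values kept direction and side of the threshold, 57 lost a call, 12 gained one and 7 turned sign. All 245 alternative values of ratio differences lay within the larger SD of the 2 groups from the main value. Most of them left out 1 library, which with 3 libraries cannot move a mean by a whole SD. That outcome was thus largely fixed in advance and does not show how stable the ratios are. Of 18 correlations between same-numbered samples, of deviations from their group means (-0.29 to 0.15), 1 exceeded 0.1. No pairing by replicate number was seen, but with 3 libraries a group these correlations cannot exclude it. With the replicate block, 28 members were lower and 3 higher between vehicle-treated tumors and normal liver and 1 was lower between MLN0128 and vehicle, as without it. With 3 libraries a group, a member that was not called may still differ by values within its interval, and Cpt1b, at 72 reads or fewer, is limited by depth.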
